A study of Mus musculus with 72 samples.

Results

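Expression of *Mboat2*, *Scin*, *Zfp277* and *Wdfy1* was examined in adult mouse hearts, 4 genes of the 24237 in the count table. They were selected on their own read counts in these libraries, because they differed between *Ahr*-/- and naïve hearts and, for 3 of them, because they lie near *Ahr* on chromosome 12; *Wdfy1* lies on chromosome 1. The difference between *Ahr*-/- and naïve hearts is therefore described here and not tested, whereas the effects of TCDD, compartment and sex were tested. All animals were C57BL/6J mice. Naïve mice were *Ahr*+/+ offspring of dams given corn oil, and low-dose and high-dose mice were *Ahr*+/+ offspring of dams gavaged with TCDD, the prototypical ligand of the aryl hydrocarbon receptor (AHR), at 0.1 or 1 μg/kg. *Ahr*-/- mice lacked the receptor in all cells from conception and came from untreated *Ahr*-/- dams of a purchased line that had been bred for several generations into C57BL/6J. RNA was taken from 3 compartments (right atrium, left atrium, ventricles) of males and females, with 3 libraries per group, 24 groups and 72 libraries in all, of which 54 were *Ahr*+/+ and 18 *Ahr*-/-. Age was 10 months in the methods of the study and 9 months in the sample labels, which also give later days of gavage (E13.5, E15.5 and E18.5), name TCDD for naïve and *Ahr*-/- samples too, and give doses without a unit. The labels call the material cardiomyocytes, but whole tissue pieces were extracted, and markers of endothelium and fibroblasts were read in every group, with summed medians of 697 to 802 and 1331 to 1838 CPM (the count of a gene scaled to a common library total).

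The 4 genes have separate roles. *Mboat2* encodes a membrane-bound acyltransferase that attaches fatty acids to lysophospholipids and so remodels membranes. *Scin* encodes scinderin (adseverin), a calcium-dependent protein of the gelsolin family that severs and caps actin filaments, and it is known as a gene that TCDD induces through AHR in the mouse thymus. *Zfp277* encodes a zinc finger protein linked to Polycomb repression of the *Cdkn2a* locus. *Wdfy1* encodes a protein with WD repeats and a FYVE domain, a fold that binds phosphatidylinositol 3-phosphate on early endosomes, and it acts as an adaptor in Toll-like receptor signaling. AHR itself is a ligand-activated transcription factor that pairs with ARNT and binds DNA elements with the core GCGTG. In a knockout line that has been crossed to another strain, DNA flanking the deleted gene is inherited together with it; the strain of origin of the DNA around *Ahr* was not examined here.

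*Ahr* (Entrez 11622) lies on chr12:35497979-35534989 of GRCm38. *Mboat2* (Entrez 67216, chr12:24831435-24964400) starts 10.7 Mb before it, *Scin* (Entrez 20259, chr12:40059769-40134228) starts 4.56 Mb after it and *Zfp277* (Entrez 246196, chr12:40315046-40445790) starts 4.82 Mb after it. *Wdfy1* (Entrez 69368) spans chr1:79702262-79776143, and its 5′ end overlaps the start of *Mrpl44* (chr1:79776018-79781445), so reads there cannot be assigned by strand, because the kit used does not mark strand. AHR elements would be looked for in promoters, and no promoter window was available for *Wdfy1* or *Ahr*. Windows of 250 bases, upstream of a start used by RefSeq for GRCm38.p6, were read for the 3 members on chromosome 12. For *Scin* (chr12:40134229-40134478, minus strand) and *Zfp277* (chr12:40445791-40446040, minus strand) that start is the 5′ end of the gene as given above. For *Mboat2* (chr12:24831349-24831598, plus strand) it is another start, 24831599, which lies 164 bases inside the gene as given above, so only the first 86 bases of its window lie outside the gene and only these are shown (chr12:24831349-24831434). All are written 5′ to 3′ on the strand of the gene, with the core GCGTG in capitals.

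Mboat2: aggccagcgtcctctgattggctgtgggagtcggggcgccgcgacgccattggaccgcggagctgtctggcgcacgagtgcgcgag
Scin: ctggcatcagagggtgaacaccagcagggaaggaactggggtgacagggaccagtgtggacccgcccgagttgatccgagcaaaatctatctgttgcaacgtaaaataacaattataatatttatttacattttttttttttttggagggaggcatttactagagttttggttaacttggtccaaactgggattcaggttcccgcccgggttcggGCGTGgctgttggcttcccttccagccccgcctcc
Zfp277: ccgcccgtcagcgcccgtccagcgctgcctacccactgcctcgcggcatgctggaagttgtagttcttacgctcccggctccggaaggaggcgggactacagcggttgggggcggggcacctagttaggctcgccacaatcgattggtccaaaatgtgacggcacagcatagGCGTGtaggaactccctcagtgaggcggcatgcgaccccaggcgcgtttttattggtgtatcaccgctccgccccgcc

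GCGTG was searched on both strands (CACGC on the other) and was found 1 time in each window of 250 bases, beginning 35 bases before the start of *Scin* and 78 before that of *Zfp277*. In the *Mboat2* window it begins at 24831481, which is 118 bases before the start used there but 46 bases past the 5′ end of the gene, and so outside the bases shown. The longer form TNGCGTG was found in 0 of the 3 windows. Of 32851 mouse promoter windows, 28.2% hold GCGTG and 4.1% hold TNGCGTG on either strand. A match to these letters is a description of the window and no evidence of binding. The *Zfp277* window is also the start of *Dock4*, a gene on the other strand that begins at 40445957.

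Between 11873417 and 28789382 reads were counted per library, with a median of 19231739. The members were well above the counting floor, with at least 102 reads of *Mboat2*, 182 of *Zfp277* and 83 of *Wdfy1* in every library, and 8 to 280 of *Scin*. *Ahr* was read at 2.0 to 9.23 CPM in *Ahr*-/- and at 8.59 to 30.8 CPM in naïve libraries, and in all 6 combinations of sex and compartment (strata) the 3 *Ahr*-/- libraries lay below the 3 naïve ones. In 17 of 72 libraries marker genes went against the label. The atrial light chain gene *Myl4* was at 2.21 to 48.7 CPM in 8 libraries labelled atrium (at least 620.5 CPM in the other 40) and at 675 to 3533 CPM in 5 labelled ventricle (at most 193 CPM in the other 19), and *Xist* and Y-linked genes went against the labelled sex in 8. Of the 17, 12 are among the 24 libraries numbered 49 to 72. In each of the 4 runs of 6 numbers there, the labels go right atrium, left atrium, ventricles with male before female in each, whereas the markers read atrium, atrium, ventricle in males and then the same in females. The contradictions thus recur at the same 3 places of each run, and the markers do not tell the right from the left atrium, so other libraries of these runs may carry the wrong atrium without being seen. Genotype labels were not touched by these markers and no library was moved. Tests of compartment and sex, which use *Ahr*+/+ libraries only, are given with and without those of the 17 that are *Ahr*+/+.

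**Figure D1:**
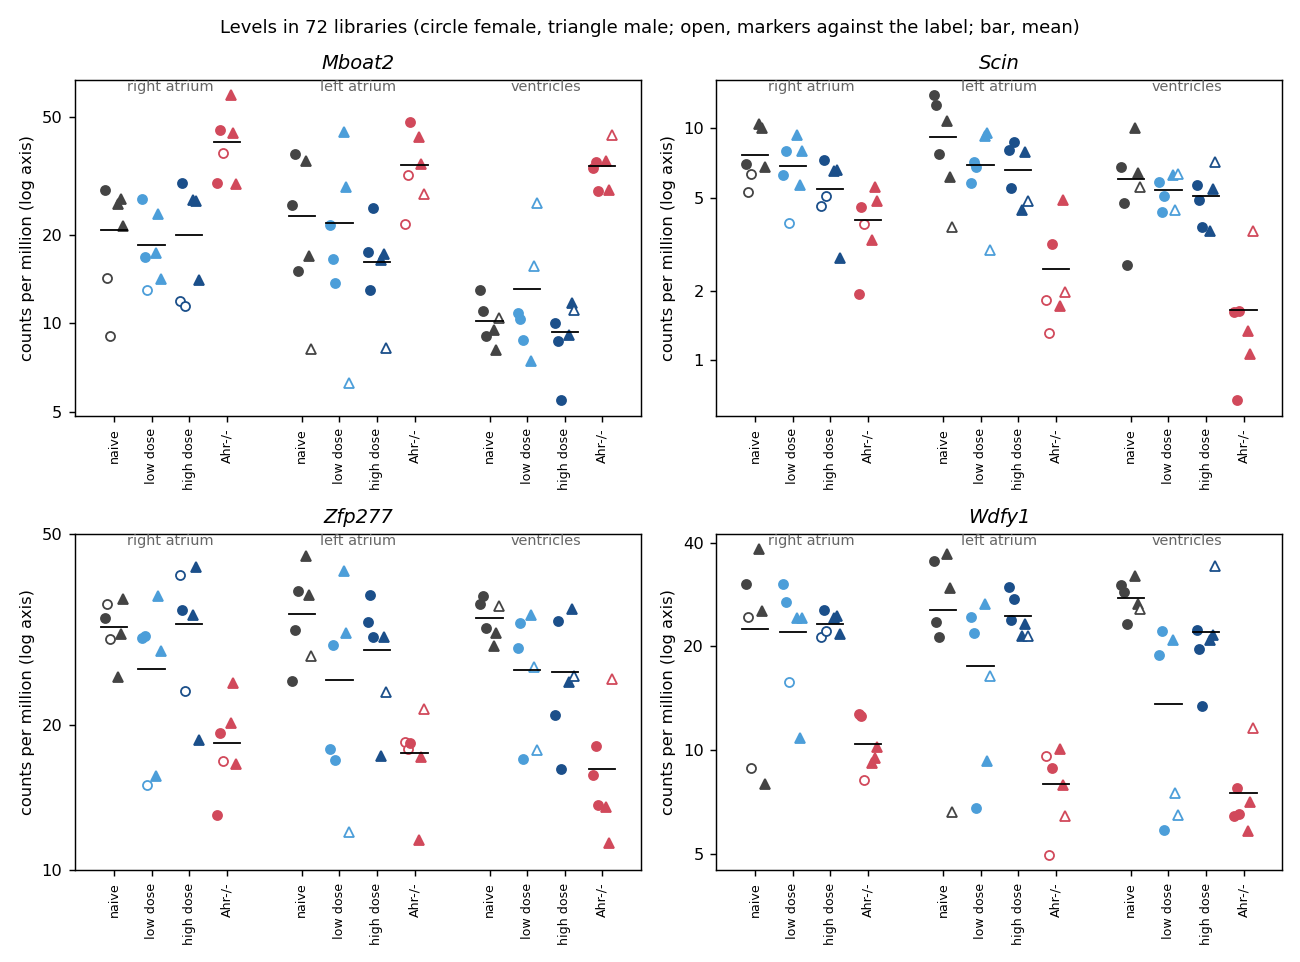
Levels of the 4 genes in CPM on a log axis, for each compartment and group; circles are female and triangles male libraries, open symbols are the 17 libraries whose markers go against their label, and bars are means of 6 libraries. *Mboat2* is higher and the other 3 genes are lower in *Ahr*-/- (red) than in naïve libraries (grey), and a few *Ahr*+/+ libraries reach the *Ahr*-/- level of *Wdfy1*.

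*Mboat2* was the member that was higher in *Ahr*-/- hearts, and the size of the difference varied between labelled compartments. In the ventricles the 6 *Ahr*-/- libraries were at 28.2 to 43.5 CPM (median 34.5) and the 6 naïve ones at 8.14 to 13.0 CPM (median 9.97). The 2 sets did not overlap. All 18 *Ahr*+/+ ventricle libraries, TCDD-exposed ones included, were at 5.48 to 25.5 CPM. In the right atrium *Ahr*-/- libraries were at 29.8 to 59.6 CPM (median 41.1) against 9.06 to 28.3 CPM (median 23.4) in naïve ones, again without overlap. Of the 13700 genes tested in all 6 strata, 0.263% in the ventricles and 0.599% in the right atrium had all 6 *Ahr*-/- libraries above all 6 naïve ones, and nothing is read from this, as the contrast chose the gene. In the left atrium the values were 21.8 to 48.4 CPM (median 33.3) and 8.17 to 37.5 CPM (median 21.1), and 3 of the 6 naïve libraries lay inside the *Ahr*-/- range. The fitted log2 fold change was above 0 in all 6 strata, from 0.48 (SE 0.362) in the left atrium of females to 1.97 (SE 0.221) in the ventricles of males, with a mean of 1.13. Both of these strata hold contradicted labels. *Ahr*-/- left atria 23 and 24 (21.8 and 31.8 CPM) had ventricular *Myl4*, and *Ahr*-/- ventricle 59 (43.5 CPM) and naïve ventricle 53 (10.4 CPM) had atrial *Myl4*. Without contradicted libraries, left atria were at 34.7 to 48.4 CPM in 3 *Ahr*-/- and 15.1 to 37.5 CPM in 5 naïve libraries, still with overlap.

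In the ventricles of males, *Mboat2* was at 28.3, 35.7 and 43.5 CPM in *Ahr*-/- and at 8.14, 9.51 and 10.4 CPM in naïve libraries. In those of females it was at 28.2, 33.7 and 35.3 CPM against 9.04, 11.0 and 13.0 CPM. All 3 *Ahr*-/- libraries lay above all 3 naïve ones in 4 of 6 strata, both of the right atrium and both of the ventricles, where 3.87% to 8.88% of all genes tested did so (8.88% and 7.76% in the right atrium of females and males, 5.9% and 3.87% in the ventricles, and 6.84% and 5.21% in the left atrium, where *Mboat2* overlapped). These strata were part of what chose the gene, so nothing is read from the count. Sorted by *Myl4* in place of the label, 8 *Ahr*-/- libraries with under 100 CPM of *Myl4* held *Mboat2* at 21.8 to 35.7 CPM and 17 *Ahr*+/+ libraries at 5.48 to 14.3 CPM, without overlap. Of the 13700 genes, 2 (0.0146%) were all higher in this sorting, *Mboat2* and *Plau* (named after its values were seen), and 2 (0.0146%) all lower, *Ahr* and *Scin*; the contrast is again the one that chose the members. Among libraries with over 500 CPM of *Myl4*, 10 *Ahr*-/- libraries were at 29.8 to 59.6 CPM and 35 *Ahr*+/+ libraries at 9.06 to 44.5 CPM, and the ranges overlapped. As these are whole tissue pieces, more cells that make a transcript and more transcript per cell cannot be told apart.

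**Figure D2:**
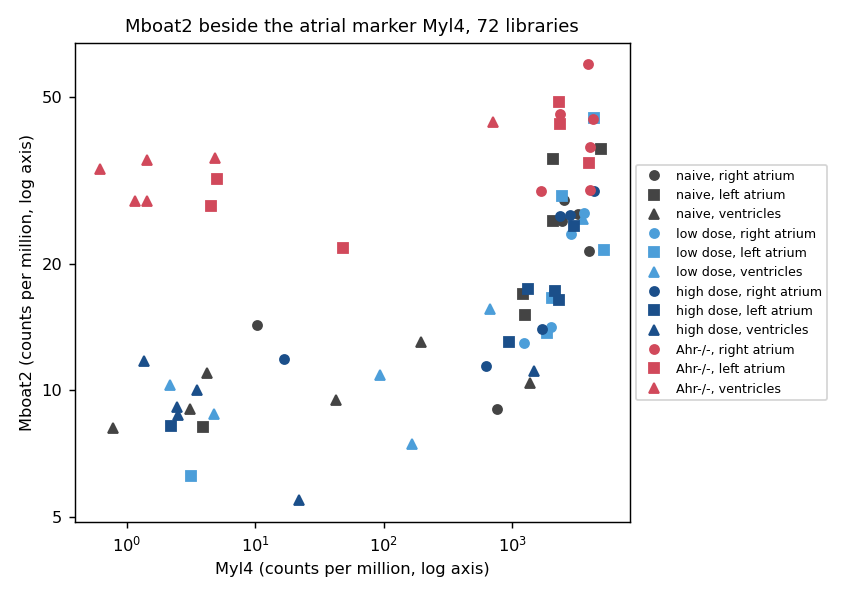
*Mboat2* against the atrial gene *Myl4*, both in CPM on log axes, 1 point per library; color is the group and shape the labelled compartment. At low *Myl4* the *Ahr*-/- libraries (21.8 to 35.7 CPM of *Mboat2*) stand above all *Ahr*+/+ libraries (at most 14.3 CPM), and at high *Myl4* the ranges overlap.

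*Scin*, the actin-severing gene 4.56 Mb from *Ahr*, was lower in *Ahr*-/- hearts. In the ventricles it was at 0.674 to 3.62 CPM (median 1.48) in 6 *Ahr*-/- libraries and at 2.59 to 10.1 CPM (median 6.02) in 6 naïve ones. In the left atrium the values were 1.32 to 4.93 CPM (median 1.89) and 3.76 to 13.9 CPM (median 9.23), and in the right atrium 1.94 to 5.57 CPM (median 4.23) and 5.34 to 10.4 CPM (median 6.93). With the sexes together each compartment had 1 naïve library inside the *Ahr*-/- range. Within strata the 3 *Ahr*-/- libraries lay below the 3 naïve ones in 5 of 6, the left atrium of males being the exception, where 1.72, 1.96 and 4.93 CPM stood against 3.76, 6.20 and 10.7 CPM. Across all genes tested this held for 1.83% (right atrium, female), 3.2% (right atrium, male), 9.47% (left atrium, female), 2.14% (left atrium, male), 6.69% (ventricles, female) and 3.74% (ventricles, male). As this contrast chose *Scin*, nothing is read from the count.

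The log2 fold change of *Scin* ran from -0.96 (SE 0.379) in the right atrium of females to -2.35 (SE 0.369) in the left atrium of females, with a mean of -1.54. Both strata hold libraries whose markers go against their label. In the left atrium of females, *Ahr*-/- numbers 23 and 24 had *Myl4* at the level of ventricles (48.7 and 5.09 CPM) and *Scin* at 1.82 and 1.32 CPM. The remaining *Ahr*-/- library there, number 58, had *Scin* at 3.16 CPM. It and the naïve libraries of that stratum had atrial *Myl4*. Among *Ahr*-/- libraries themselves the median of *Scin* was 4.23 CPM in the right atrium and 1.48 CPM in the ventricles. By *Myl4*, the 8 *Ahr*-/- libraries under 100 CPM had 0.674 to 1.96 CPM of *Scin*, below all 17 *Ahr*+/+ libraries of that kind (2.59 to 10.1 CPM), as in the count given above. The 10 over 500 CPM had 1.72 to 5.57 CPM and overlapped with the 35 *Ahr*+/+ libraries (2.78 to 13.9 CPM). The gene has the lowest counts of the 4, so its values carry the most counting error.

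*Zfp277* was the member with the most even difference. The 6 *Ahr*-/- libraries were at 11.4 to 25.0 CPM (median 14.7) in the ventricles, 11.5 to 21.6 CPM (median 18.1) in the left atrium and 13.0 to 24.5 CPM (median 18.1) in the right atrium. The naïve libraries were at 29.2 to 37.2 CPM (median 33.6), 24.7 to 45.0 CPM (median 34.5) and 25.2 to 36.6 CPM (median 32.2), so that no naïve library overlapped with *Ahr*-/- libraries of its compartment, which in this direction held for 0.234%, 0.117% and 0.102% of the 13700 genes. The log2 fold change lay between -1.15 and -0.64 in the 6 strata, with a mean of -0.94. All 3 *Ahr*-/- libraries were below all 3 naïve ones in 6 of 6 strata. A lack of overlap in 1 direction in all 6 held for 4 of 13700 genes, namely *Ahr*, *Zfp277*, and in the higher direction *Med24* and *Plod1*. The last 2 are named because they complete this count, after their values were seen. As this contrast chose *Zfp277*, nothing is read from these counts. Over all compartments, 15 of the 54 *Ahr*+/+ libraries were inside the *Ahr*-/- range of *Zfp277*, down to 11.98 CPM.

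*Wdfy1* was also lower in *Ahr*-/- hearts, at 5.80 to 11.6 CPM (median 6.79) in the ventricles, 4.97 to 10.1 CPM (median 8.38) in the left atrium and 8.16 to 12.7 CPM (median 9.85) in the right atrium. Libraries labelled naïve ventricle were at 23.2 to 32.0 CPM (median 27.7), with no overlap (0.234% of genes, as above). Naïve left and right atria were at 6.59 to 37.1 CPM (median 26.6) and 7.98 to 38.3 CPM (median 24.8), and 3 of these 12 libraries were as low as *Ahr*-/- libraries. Sorted by *Myl4* in place of the label, the groups overlapped in both kinds of library. Under 100 CPM of *Myl4*, 8 *Ahr*-/- libraries were at 4.97 to 9.59 CPM and 6 naïve ones at 6.59 to 32.0 CPM, the lowest being number 51, which is labelled left atrium and has 3.90 CPM of *Myl4*. Over 500 CPM of *Myl4*, 10 *Ahr*-/- libraries were at 7.89 to 12.7 CPM and 11 naïve ones at 7.98 to 38.3 CPM. The log2 fold change ran from -1.03 (SE 0.394) in the right atrium of females to -1.91 (SE 0.177) in the ventricles of females, with a mean of -1.55. The 3 *Ahr*-/- libraries lay below the 3 naïve ones in 3 of 6 strata, the left atrium of females and both of the ventricles, which held for 9.47% (left atrium, female), 6.69% (ventricles, female) and 3.74% (ventricles, male) of all genes tested. As this contrast chose *Wdfy1*, nothing is read from the count.

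**Figure D3:**
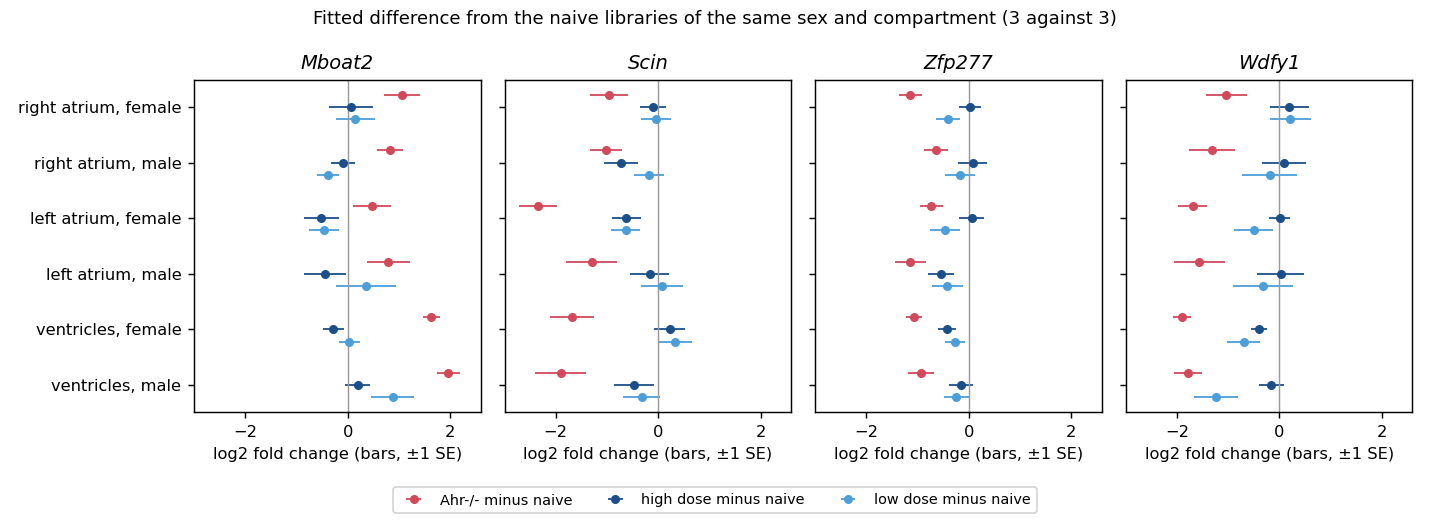
Fitted log2 fold change (x axis, bars ±1 SE) of each gene against naïve libraries of the same sex and compartment (y axis), 3 libraries against 3, for *Ahr*-/- (red), high-dose (dark blue) and low-dose TCDD (light blue); the 3 comparisons of a row share their naïve libraries. The *Ahr*-/- values of *Mboat2* lie above 0 (0.48 to 1.97) and those of the other genes below 0 in all 6 strata.

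Part of the *Ahr*+/+ libraries reached the *Ahr*-/- level of *Wdfy1*. Of the 54 *Ahr*+/+ libraries, 9 were at 5.86 to 10.9 CPM, inside the *Ahr*-/- range, and the next value was 13.4 CPM (number 66, high-dose ventricle), above the highest *Ahr*-/- library (12.7 CPM), which sets the limit used here. The values after it were 15.8, 16.4 and 18.9 CPM, so no gap sets the 9 apart from the rest. The 45 others had a median of 24.1 CPM. The 9 were not spread evenly over library numbers. Numbers 49, 50 and 51 are naïve (7.98, 8.85 and 6.59 CPM), numbers 70, 71 and 72 are low-dose (6.76, 6.46 and 5.86 CPM), and numbers 14, 30 and 46 are low-dose males of the right atrium, left atrium and ventricles (10.9, 9.30 and 7.51 CPM). All of 49 to 51 were male by their sex-linked genes, all of 70 to 72 female, and 14, 30 and 46 male. By the methods 3 mice per sex and group each gave 1 library per compartment; the labels do not state which libraries come from 1 heart. No high-dose library was among the 9.

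The other genes were read in these 9 libraries against the range of all 18 *Ahr*-/- libraries. *Ahr* was at 6.67 to 16.7 CPM in the 9, and 4 of them (46, 51, 70 and 71) lay inside the *Ahr*-/- range of 2.0 to 9.23 CPM. *Mboat2* was at 8.17 to 29.0 CPM with 3 inside (14, 30 and 71), *Scin* at 3.76 to 9.53 CPM with 3 inside (46, 51 and 72) and *Zfp277* at 16.9 to 37.1 CPM with 3 inside (70, 71 and 72). None of the 9 was inside for all 4 of these genes, library 71 was inside for 3, and libraries 49 and 50 for none. Erythroid markers, summed over 3 genes, were highest of all 72 libraries in number 51 (15108 CPM) and next highest in number 50 (10185 CPM), and number 49 was at 4935 CPM, whereas the 6 low-dose libraries of the 9 were at 945 to 1991 CPM; their part in the level of *Wdfy1* was not tested. The 15 other naïve libraries had *Wdfy1* at 21.3 to 38.3 CPM. That they lie above every *Ahr*-/- library follows from how the 9 were set apart. The limit used is the highest *Ahr*-/- library, so all 18 *Ahr*-/- libraries count as low by definition, beside part of the *Ahr*+/+ ones. Which mice the latter came from was not tested.

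**Figure D4:**
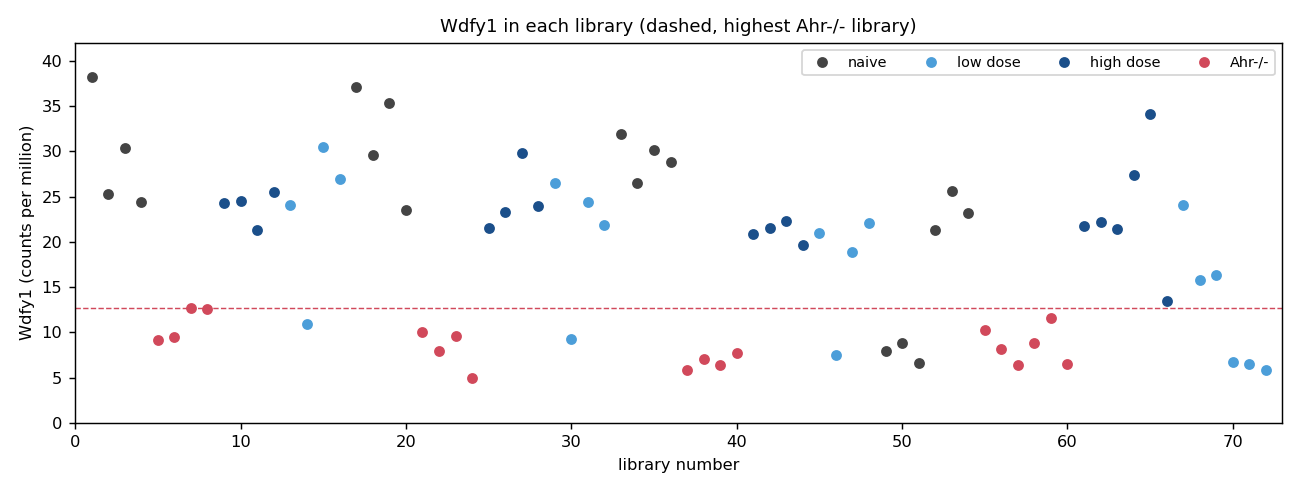
*Wdfy1* in CPM (y axis) by library number (x axis), 1 point per library, colored by group; the dashed line is the highest *Ahr*-/- library (12.7 CPM). The *Ahr*+/+ libraries with numbers 14, 30, 46, 49 to 51 and 70 to 72, lie below the line, and the other 45 lie above it.

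Whether TCDD given in utero moved these genes in *Ahr*+/+ hearts was tested for 2 doses, 3 compartments and 2 sexes. With edgeR's quasi-likelihood test and Benjamini-Hochberg adjustment over all genes, 0 of 48 tests of the members passed an adjusted p of 0.05, 3 had an unadjusted p under 0.05, and DESeq2 called 0 as well. The share of all genes called was 0.0% in 11 of the 12 comparisons and 23.7% (3313 genes) in high-dose ventricles of females. These shares moved with the libraries used. Without libraries whose markers go against their label the share became 15.9% (2209 of 13865 genes) in high-dose ventricles of males (2 libraries against 2) and 0.394% in low-dose ones (1 against 2), and leaving out 1 library moved the 3313 genes to between 1553 (without naïve library 35) and 3917 (without high-dose library 44), while the members had 0 calls without the contradicted libraries in the 11 comparisons that could then be fitted. With all 4 groups in one edgeR fit the 23.7% became 4.96% (719 genes). DESeq2 called 19.1% of all genes in high-dose ventricles of females, 2.9% in low-dose left atrium of females, 2.72% and 0.914% in low-dose ventricles of females and males, and at most 0.574% in the other 8. In high-dose ventricles of females, *Wdfy1* was at 13.4, 19.6 and 22.3 CPM in high-dose and at 23.2, 28.8 and 30.1 CPM in naïve libraries (log2 fold change -0.40, SE 0.157, adjusted p = 0.0799 from edgeR). *Zfp277* was at 16.2, 21.0 and 33.0 CPM against 31.9, 35.8 and 37.2 CPM (-0.43, SE 0.181, adjusted p = 0.105 from edgeR), and it passed when the high-dose library number 44 was left out (-0.68, adjusted p = 0.00607). The third was *Wdfy1* in low-dose ventricles of males, at 6.46, 7.51 and 20.9 CPM against 25.6, 26.5 and 32.0 CPM (-1.24, SE 0.437, adjusted p = 0.312 from edgeR), which was -0.51 (adjusted p = 0.606) without libraries whose markers go against their label. That fit removes the low-dose libraries at 6.46 and 7.51 CPM and holds 1 low-dose library against 2 naïve ones, the lone library being assumed to vary like the others.

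With the sexes together, 6 libraries against 6, edgeR called 0 of 24 tests of the members, 1 had an unadjusted p under 0.05, and DESeq2 called 1. The share of all genes called was 0.0732% in high-dose right atrium, 13.1% in high-dose and 12.9% (1848 genes) in low-dose ventricles, and 0.0% in the others. *Wdfy1* in low-dose ventricles was nearest to the threshold. It was at 5.86 to 22.1 CPM (median 13.2) in low-dose and at 23.2 to 32.0 CPM (median 27.7) in naïve libraries, so that all 6 low-dose libraries were lower, as was seen for 5.66% of all genes tested (log2 fold change -0.97, SE 0.303, unadjusted p = 0.0067, adjusted p = 0.0509 from edgeR). This value crossed the threshold with DESeq2 (adjusted p = 0.0139), with all 4 groups in one edgeR fit (0.022) and with a term for library series (0.0167). These fits called 13.8%, 10.8% and 15.4% of all genes. It did not cross it in edgeR with RLE scaling (adjusted p = 0.0541), library size only (0.051), no filter on low counts (0.0733) or libraries 1 to 48 only (0.0954). Nor did it without the libraries whose markers go against their label (-0.65, adjusted p = 0.135), where the low-dose share fell from 12.9% to 5.79% (836 genes). In high-dose ventricles *Wdfy1* had a log2 fold change of -0.27 (adjusted p = 0.217 from edgeR), which became -0.44 (adjusted p = 0.0256) without those libraries, in a fit that called 24.9% of all genes. The lack of overlap holds for the labels only, since number 51, labelled naïve left atrium but with *Myl4* at the level of ventricles, had *Wdfy1* at 6.59 CPM, and naïve number 53, labelled ventricle, has atrial *Myl4* (1378 CPM). The 6 low-dose ventricle libraries include numbers 46, 71 and 72 of the 9 low ones above.

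*Mboat2*, *Scin* and *Zfp277* had no called TCDD effect in these fits, other than *Zfp277* without library 44. Where a fit called 0.0% of all genes, the lack of a call says nothing about the members. For *Scin* the log2 fold change lay between -0.73 and 0.22 at high dose and between -0.63 and 0.33 at low dose over the 6 strata, for *Mboat2* between -0.51 and 0.20 and between -0.46 and 0.88. The 0.88 is from low-dose ventricles of males, which include libraries 46 and 71 with atrial *Myl4*, and became -0.26 without contradicted libraries (1 against 2). *Zfp277* was below 0 in all 6 strata at low dose (-0.46 to -0.17, adjusted p at least 0.437 from edgeR) and in 3 of 6 at high dose. In low-dose ventricles of males it went from -0.24 to 0.15 without contradicted libraries. The 12 comparisons share the naïve libraries with each other and with the *Ahr*-/- comparisons. Whether a TCDD effect differed between the sexes was tested by interaction terms in 6 fits of edgeR, and 0 of 24 member tests passed (adjusted p at least 0.952, with 0 at an unadjusted p under 0.05), but these fits called 0.0% of all genes, so the count says nothing about the members. Without those of the 17 libraries that are *Ahr*+/+, no member passed for high-dose ventricles (adjusted p at least 0.212 from edgeR), in a fit that called 8.03% of all genes (1172 genes). The fits of the left atrium called 0 genes at either dose and so say nothing about the members. Naïve and high-dose right atrium of females and low-dose ventricles of males then hold 1 library each. No call is therefore given for the right atrium or for low-dose ventricles.

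The compartments were compared over the 54 *Ahr*+/+ libraries, with terms for group and sex. *Mboat2* was higher in the atria than in the ventricles. It was at 9.06, 19.4 and 29.9 CPM (lowest, median and highest of 18) in the right atrium, 6.26, 17.1 and 44.5 CPM in the left atrium and 5.48, 10.2 and 25.5 CPM in the ventricles. The log2 fold change against ventricles was 0.67 for the right atrium (SE 0.164, adjusted p = 0.00831 from edgeR, where 13.0% of all genes were called) and 0.69 for the left atrium (SE 0.164, adjusted p = 0.0134, 10.7% called). Without the libraries whose markers go against their label these were 0.95 (adjusted p = 1.89e-06) and 0.97 (adjusted p = 4.89e-07), in fits that called 45.0% and 45.5% of all genes. With naïve libraries only they were 0.90 and 1.05 (adjusted p = 0.15 and 0.403), in fits that called 1 and 0 of 15060 genes. By the methods each heart gave all 3 compartments, and since no label ties a library to a heart, the fit treats libraries as independent.

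*Scin*, *Zfp277* and *Wdfy1* did not pass in either comparison of compartments. Their log2 fold changes were 0.08, -0.09 and -0.01 for the right atrium (SE 0.133, 0.112 and 0.181) and 0.25, -0.14 and -0.04 for the left atrium (SE 0.133, 0.112 and 0.18), with adjusted p from 0.198 to 0.977 from edgeR. *Scin* in the left atrium passed when counts were scaled by library size only (0.45, adjusted p = 0.0438), in a fit that called 16.2% of all genes, 2277 higher and 231 lower (931 and 716 with TMM). Under this scaling *Zfp277* and *Wdfy1* turned above 0 in both atria, and the median of all genes moved to 0.19 for the right and 0.18 for the left atrium. Without those of the 17 libraries that are *Ahr*+/+, the values were 0.11, -0.20 and -0.04 for the right atrium and 0.32, -0.18 and -0.11 for the left atrium. They were again not called (adjusted p from 0.0616, for *Scin* in the left atrium, to 0.887 from edgeR). Between females and males no member passed in edgeR (adjusted p = 0.999 for each), where 0.207% of all genes were called, and the log2 fold changes of female against male lay between -0.18 (*Mboat2*) and 0.03 (*Wdfy1*). Without the contradicted *Ahr*+/+ libraries these fold changes lay between -0.10 (*Zfp277*) and 0.01 (*Wdfy1*), with adjusted p from 0.795 to 0.992 from edgeR. That fit called 0.696% of all genes. The SE of 0.0913 to 0.147 sets the size of a sex difference that these libraries could show. It treats libraries as independent, though by the methods each heart gave all compartments, so it is not an SE between mice.

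The levels by compartment were set side by side for both genotypes. In naïve hearts the median of *Mboat2* was 23.4 CPM in the right atrium, 21.1 CPM in the left atrium and 9.97 CPM in the ventricles, and in *Ahr*-/- hearts it was 41.1, 33.3 and 34.5 CPM, the latter 2 differing by less than their spread (SD 9.86 and 5.67, n = 6). Of the 6 *Ahr*-/- libraries labelled left atrium, 3 have *Myl4* at the level of ventricles. Without the libraries whose markers go against their label, the *Ahr*-/- medians were 44.2 CPM in the right atrium (5 libraries), 43.0 CPM in the left atrium (3 libraries) and 33.7 CPM in the ventricles (5 libraries), beside 25.9, 25.3 and 9.51 CPM in naïve hearts (4, 5 and 5 libraries). The ranges of these *Ahr*-/- libraries overlapped, with 29.8 to 59.6, 34.7 to 48.4 and 28.2 to 35.7 CPM, whereas in naïve hearts all atria (15.1 to 37.5 CPM) were above all ventricles (8.14 to 13.0 CPM).

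*Scin* had medians of 6.93, 9.23 and 6.02 CPM in right atrium, left atrium and ventricles of naïve and of 4.23, 1.89 and 1.48 CPM in those of *Ahr*-/- hearts. Without the contradicted libraries these became 8.57, 10.7 and 6.45 CPM and 4.58, 3.16 and 1.34 CPM. *Zfp277* had medians of 32.2, 34.5 and 33.6 CPM in naïve and 18.1, 18.1 and 14.7 CPM in *Ahr*-/- hearts, all within the spread of their neighbors. *Wdfy1*, at 24.8, 26.6 and 27.7 CPM in naïve and 9.85, 8.38 and 6.79 CPM in *Ahr*-/- hearts, became 27.8, 29.6 and 28.8 CPM and 10.2, 8.87 and 6.51 CPM without them. These levels follow from the contrast that chose the genes and were not tested.

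As 3 members lie near *Ahr*, the other genes of that stretch of chromosome 12 were listed by distance. Within 15 Mb on either side, 73 genes were tested in all 6 strata. In 6 of them (8.22%) the *Ahr*-/- and naïve libraries did not overlap, in the same direction, in at least 4 strata, as in 71 of all 13700 genes (0.518%). The 6 are *Ahr*, *Scin* and *Zfp277*, which were lower, and *Mboat2*, *Itgb1bp1* and *Cpsf3*, which were higher. The members were picked for this, and without them and *Ahr* the count was 2 of 69 (2.9%). *Itgb1bp1*, an integrin-binding adaptor, and *Cpsf3*, the nuclease that cuts mRNA 3′ ends, overlap at their ends 14.2 Mb before *Ahr*, so their reads cannot be told apart where they overlap. Their mean log2 fold changes were 0.42 and 0.34. Within 5 Mb the count was 3 of 38, again *Ahr*, *Scin* and *Zfp277*.

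**Figure D5:**
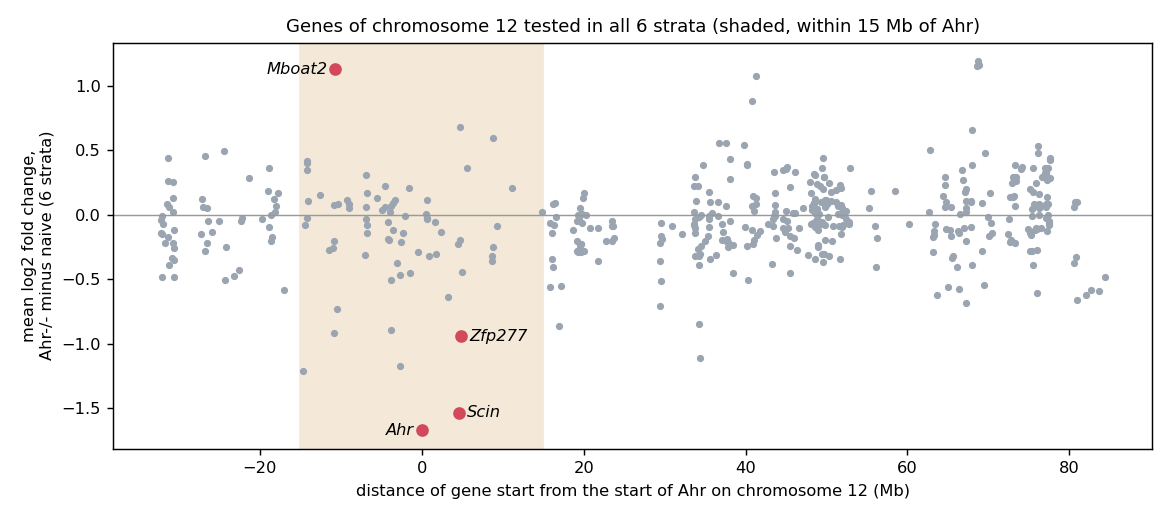
Mean log2 fold change of *Ahr*-/- against naïve libraries over 6 strata (y axis) by distance of the gene's start from the start of *Ahr* (x axis, Mb), for the genes of chromosome 12 tested in all 6 strata; the shaded band is 15 Mb on either side. *Ahr*, *Scin*, *Zfp277* and *Mboat2* (red) lie far from 0, and most of their neighbors lie near 0 (median -0.06 in the band).

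The median of the mean log2 fold change in this window was -0.06, beside 0.01 over all genes, and 5 of 73 genes (6.85%) exceeded 1 in size beside 0.474% of all genes; 3 of the 5 are *Ahr*, *Scin* and *Mboat2*, and without the members and *Ahr* it was 2 of 69 (2.9%). Direct neighbors of the members had mean differences that were smaller in size, and some were of the other sign. *Mboat2* lies between *Rrm2*, a ribonucleotide reductase subunit (-0.20), and *Kidins220*, a scaffold of neurotrophin signaling (-0.73), both with means below 0 where *Mboat2* was above. *Scin* lies between *Arl4a*, a small GTPase (-0.23), and *Lsmem1* (0.68). *Zfp277* lies between *Ifrd1* (-0.19) and *Dock4*, a guanine nucleotide exchange factor (-0.45). Next to *Ahr* itself, *Snx13* had -0.29 and *Tspan13* 0.00138. On chromosome 1 *Wdfy1* has *Ap1s3* (0.34) on 1 side and *Mrpl44* (0.12), which overlaps its start, on the other, with *Mrpl44* counted at 70.6 CPM on average.

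Likeness of patterns was described by Pearson's r of log2 CPM over all 72 libraries, centered within each sex and compartment. The points share the *Ahr*-/- contrast that chose the members, as well as library depth. *Scin* was most like *Vmn2r15* (r = 0.80), *Ahr* (0.80) and *Rell1* (0.70), *Zfp277* most like *Ahr* (0.72), *Lsmem1* (-0.72) and *Dach1* (0.71), and *Wdfy1* most like *Ahr* (0.68), *Scin* (0.65) and *Rbmx* (0.65). *Mboat2* stood apart from the other members, with r of -0.33 to *Scin*, -0.25 to *Zfp277* and -0.37 to *Wdfy1*. Its closest patterns were those of *Entpd4* (0.77) and of *Cyp1b1* (0.73) and *Cyp1a1* (-0.72), cytochromes P450 that AHR is known to induce. With the *Ahr*-/- libraries left out and the centering kept, no Cyp1 gene was among its 8 closest, which were led by *Rabgap1l* (0.91), *Stat5b* (0.90) and *Lad1* (0.90). With all 72 libraries centered within group, sex and compartment there was none either, and *Lad1* (0.90), *Rabgap1l* (0.90) and *Psd3* (0.90) led; both were tried after seeing the data. The r to *Cyp1b1* itself was not lower, at 0.74 and 0.79, and that to *Cyp1a1* was -0.33 and -0.29. Over the 54 *Ahr*+/+ libraries alone, centered within group, sex and compartment, *Ahr* had r of 0.60 to *Scin*, 0.51 to *Zfp277*, 0.46 to *Wdfy1* and 0.41 to *Mboat2*, and the pair of *Mboat2* and *Scin* was at 0.66 (0.59 and 0.55 with only the libraries or only the centering changed); these points also share labels that the markers contradict.

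Relatives of each member were set beside it by 5 lists of genes. Among 7 other genes of the gelsolin family, the *Ahr*-/- and naïve libraries were apart in 4 of 31 combinations of gene and stratum (3.23% higher and 9.68% lower), beside 6.44% and 4.49% over all genes, and the lowest mean log2 fold change among the 4 tested in all strata was -0.20, for *Svil*, where *Scin* had -1.54. *Gsn*, the plasma and cytoplasmic gelsolin itself, had a mean log2 fold change of 0.11 and *Capg*, a capping protein, 0.33. Among 13 other acyltransferases of the MBOAT and lysophospholipid group, the shares were 6.94% and 4.17%, with a median of 0.24 over the 12 genes tested in all strata, and the closest paralog, *Mboat1*, had 0.58 at a median level of 1.82 CPM. Among 20 other FYVE and phosphatidylinositol 3-phosphate genes the shares were 2.5% and 8.33% with a median of -0.06. Their mean log2 fold changes ran from -0.69 for *Wdfy2* to 0.55 for *Wdfy4*, and *Wdfy3* had -0.33. In this list the low-dose libraries were all lower than the naïve ones in 30.8% of combinations and the high-dose ones in 16.7%. Over all genes these shares were 9.64% and 9.26%, against the same naïve libraries as the *Ahr*-/- comparison. In the same order they were 3.23% and 0% for the gelsolin list and 4.17% and 2.78% for the MBOAT list. For the Polycomb and AHR lists below they were 13.6% and 13.6%, and 10.9% and 7.81%. MBOAT combinations were all higher in 6.94% at low and 12.5% at high dose, beside 5.3% and 7.01% over all genes. None of these shares was tested.

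*Zfp277* was set beside 12 Polycomb genes and *Cdkn2a* was among them. *Cdkn2a*, the locus that *Zfp277* is linked to, had a median of 0.239 CPM and was too low to be tested in any stratum. The shares of combinations all higher and all lower in *Ahr*-/- were 6.06% and 3.03%, and *Bmi1* had -0.39 and *Ring1* -0.03. Of the 12 genes of the AHR pathway, *Ahr* included, 1.64% of combinations were all higher and 19.7% all lower; *Ahr* accounted for 6 and *Cyp1a1* for 3 of the 12 lower ones. *Cyp1a1*, the best-known target of AHR, was at 0 to 0.0842 CPM in *Ahr*-/- libraries, with a median of 0, and at 0 to 9.99 CPM in naïve ones. Under TCDD, with 1 sex at a time, edgeR called 8 of the 57 genes of the 5 lists that were tested in high-dose ventricles of females (14.0%, beside 23.7% of all genes) and 0 in the other 11 comparisons. With the sexes together it called 9 of 60 in high-dose ventricles (15.0%, beside 13.1%) and 6 of 60 in low-dose ventricles (10.0%, beside 12.9%). These shares are near or below those of all genes, and so are no result about the lists. Among the called genes of high-dose ventricles with the sexes together was *Ahr* itself, which fell (-0.96, SE 0.256, adjusted p = 0.0298 from edgeR).

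Markers of other cells that could be in the tissue pieces were read beside the members. Thymocyte and T cell markers, summed over 5 genes, were at 1.63 to 28.0 CPM in naïve, 2.50 to 33.8 in *Ahr*-/-, 1.91 to 31.4 in low-dose and 1.74 to 632 CPM in high-dose libraries. Megakaryocyte and platelet markers, summed over 4 genes, were at 2.81 to 11.8 CPM in naïve and 2.28 to 16.1 CPM in *Ahr*-/- libraries. These ranges overlapped between *Ahr*-/- and naïve libraries, though 6 of 18 *Ahr*-/- libraries were above all naïve ones in the platelet sum. The endothelial sum of 4 genes moved with the *Ahr*-/- contrast. It was at 542 to 799.9 CPM (median 697) in naïve and at 636 to 919 CPM (median 802) in *Ahr*-/- libraries, of which 10 of 18 were above every naïve library. Macrophage markers, summed over 3 genes, were at 35.3 to 125 and 39.0 to 169 CPM. Lung markers, summed over 3 genes, had a median of 0 CPM in every group and at most 4.36 CPM in naïve libraries, but stood at 740.5 CPM in 1 *Ahr*-/- library (number 21, left atrium), 2064 CPM in 1 low-dose library (number 15, right atrium) and 65.9 CPM in 1 high-dose library (number 25, left atrium). In number 21 *Mboat2* was at 43.0, *Scin* at 1.72, *Zfp277* at 11.5 and *Wdfy1* at 10.1 CPM, the lowest *Zfp277* and the highest *Wdfy1* of the 6 *Ahr*-/- left atria. The part of such cells in the levels of the members was not tested.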

How the data were processed

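RNA of 72 heart libraries was sequenced by the authors from poly(A) RNA as single reads; base calls were made with CASAVA 1.8, reads were aligned to mm10 with TopHat, and reads on coding regions were counted, as the methods and the submitters' processing notes state. The deposited values are raw counts per Entrez gene, which the authors did not normalize; the annotation release, handling of strand and of reads with several alignments are not given in the sources used here. Of 24237 identifiers 24155 were matched to a symbol in RefSeq (GRCm38.p6), which shares its coordinates with mm10, and 82 without symbol hold 3.91% of counts. No pair of libraries was identical. Libraries hold 11873417 to 28789382 counts, and a count of 0 would allow up to 3 counts (counting error only).

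Groups follow the labels, with doses and the untreated state of *Ahr*-/- mice from the methods. Counts were tested with edgeR 4.0.16 in R 4.3.3 (TMM, robust quasi-likelihood F test, genes kept by filterByExpr at 10 counts and 15 in total, Benjamini-Hochberg over all genes, threshold 0.05), each TCDD group against naïve of its sex and compartment; compartments and sexes were compared over 54 *Ahr*+/+ libraries. CPM were made from total counts, and correlations used log2 CPM with a prior count of 2. The *Ahr*-/- contrast chose the members and has no p. Alternatives were DESeq2 1.42.0, RLE scaling, scaling by total alone, no filter, a joint fit of all groups, a covariate for library series (numbers 1 to 48 against 49 to 72), the study's threshold of 0.0001, libraries 1 to 48, and each library left out; leaving out libraries with contradicted markers in the TCDD and interaction fits and the correlation over *Ahr*+/+ libraries were added after the data were seen. The members, gene lists and tests were chosen with earlier results of these data known. Named genes are the members, *Ahr*, *Cyp1a1*, genes within 15 Mb of *Ahr* whose libraries did not overlap in at least 4 strata, nearest neighbors, the 3 most correlated genes, and members of the lists. *Myl4* and *Xist* are named as markers of the labels. *Plau*, *Med24*, *Plod1* and *Mt1* were named in addition, after their values were seen. Replicates are separate libraries by label; nothing in the labels ties them to separate mice, and the methods name 3 mice per sex and group. The fit was tested on simulated counts with the same dispersion for every gene. These held no contradicted labels and no libraries of the same heart, so that test does not cover these features of the data. Python 3.11.15 with pandas 2.3.3 was used.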

Additional observations from a re-analysis of the deposited data

Results flagged for a closer look

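Over 48 sets of 6 libraries (4 genes, 4 groups, 3 compartments), 2 had a library far from the others, and chance flags about 1 in 20 such sets. Both were in *Ahr*-/- ventricles and were the same library, number 59, labelled male. *Scin* was at 3.62 CPM in it and at most 1.63 CPM in the 5 others, and *Wdfy1* was at 11.6 CPM and at most 7.75 CPM in the others. Library 59 is also among those whose markers go against the label, with *Myl4* and *Xist* at the level of a female atrium. Its values lie inside the range of the libraries labelled *Ahr*-/- atrium that had over 500 CPM of *Myl4*. These were at 1.72 to 5.57 CPM of *Scin* and 7.89 to 12.7 CPM of *Wdfy1*. Without library 59, the *Ahr*-/- ventricles had 0.674 to 1.63 CPM of *Scin* and 5.80 to 7.75 CPM of *Wdfy1*.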

How the results depend on the processing

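Of 346 values under other settings, 331 were like the main value. For compartments and sexes, like means the same direction and side of the threshold. For the *Ahr*-/- differences, which have no p, it means within the pooled SD between replicates. For counts of calls and of genes near *Ahr*, it means the same or a similar count. The 6 that changed sign were all of compartments or sexes, and none of them was called in either fit. With scaling by library size only, *Zfp277* and *Wdfy1* became 0.0922 and 0.159 in the right atrium and 0.0338 and 0.121 in the left atrium against ventricles, and with naïve libraries only, female against male became 0.0127 for *Mboat2* and -0.0262 for *Wdfy1*. TCDD entered these as counts of calls. Of 572 TCDD log2 fold changes of members under other settings, 43 changed sign, none called in either fit, 12 of them with libraries 1 to 48 only and 7 without contradicted libraries in fits of 1 sex; those that moved most were *Mboat2* in low-dose ventricles, from 0.88 to -0.26 in males and from 0.46 to -0.06 with the sexes together, and *Wdfy1* in high-dose left atrium of males, from 0.02 to -0.57, all without contradicted libraries. The mean *Ahr*-/- difference stayed, over 8 settings, at 0.95 to 1.15 for *Mboat2*, -1.92 to -1.53 for *Scin*, -1.04 to -0.94 for *Zfp277* and -1.82 to -1.46 for *Wdfy1* on the log2 scale, and with 1 library left out at 1.07 to 1.23, -1.63 to -1.47, -1.002 to -0.905 and -1.62 to -1.47. Calls of members under TCDD were 0 in the 9 other settings and 0 to 1 with 1 library left out (*Zfp277* without high-dose female ventricle library 44). With the sexes together, 0 calls became 1 with all 4 groups in one fit, 1 with a term for the library series and 1 with DESeq2, each *Wdfy1* in low-dose ventricles, and 1 without libraries whose markers go against their label, *Wdfy1* in high-dose ventricles; the cause was not tested, though the last fit has fewer samples. *Mboat2* in right and left atrium against ventricles was 0.90 and 1.05 with naïve libraries only, no longer past the threshold in fits that called 1 and 0 of 15060 genes, and *Scin* in left atrium against ventricles was 0.45 and passed with library size only. The genes near *Ahr* without overlap were 6 of 73, 3 of 38 in the 5 Mb window, which holds fewer genes, and 7 of 106 (6.6%, beside 0.373% of all genes) with no filter, counts that include *Ahr* and the members picked for this; without these they were 2 of 69, and 0 of 35 in the 5 Mb window. No paired analysis was run, because replicate numbers in the labels differ between groups and no label ties a library to a heart. Hearts were not inferred from the order of library numbers. Counting error alone would give a coefficient of variation of 4.79% to 6.30% for *Mboat2*, *Zfp277* and *Wdfy1* and 12.1% for *Scin* (35.4% at its lowest count), beside 28.1% to 37.4% between libraries of a group.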

Other observations

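Chromosome 12 held 10 of 477 genes (2.1%) with a mean *Ahr*-/- difference over 1 on the log2 scale, among them *Ahr*, *Mboat2* and *Scin*, which were chosen for it. Without the members and *Ahr* it was 7 of 473 genes (1.48%), while the other chromosomes had 0% to 0.702%, and 5 of 404 genes (1.24%) outside the 15 Mb around *Ahr*. Among the genes whose libraries did not overlap in at least 5 strata (14 of 13700, 0.102%), *Mt1*, a metallothionein on chromosome 8, had the largest mean difference besides *Ahr* and *Scin*, at 1.20 in *Ahr*-/- hearts. It was singled out after its values were seen.

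The genes most like *Wdfy1* over the 54 *Ahr*+/+ libraries were *Cacfd1* (r = 0.74), *Birc2* (0.73) and *Tle4* (0.73), given as a description without a test.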
